A study of Ovis aries with 12 samples.

Results

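The cytosolic ribosomal protein genes code for the proteins of the ribosome that works in the cytoplasm. They were taken as every gene of the deposited expression table whose symbol is RPL or RPS with a number, with or without a final A or X, together with RPSA, RPLP0, RPLP1 and RPLP2. The rule gave 73 of 21257 genes, of which 43 belong to the large subunit and 30 to the small one, and all 73 passed the filter on low values. The rule itself uses no measured value. Of the named proteins of the vertebrate ribosome, FAU and RACK1 are examples in the table under symbols that the rule leaves out, and no row has the symbol RPL17, RPL36A, RPL41 or RPS28.

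Total RNA of 5-month-old Tan sheep (Ovis aries) was sequenced in 12 libraries, 3 for each of 4 diets. The control diet was the basal diet, and the other diets were the basal diet with 0.5%, 1% or 2% succinate, an acid that rumen bacteria make and turn into propionate. The trial held 36 sheep in individual pens, 9 on each diet, and its title concerns the proliferation of rumen epithelial cells. The labels name no tissue and do not tie libraries to sheep. The p-values therefore rest on the spread among the deposited samples, and part of that spread may be technical.

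The ribosome joins amino acids into protein. Its small subunit reads the messenger RNA, and its large subunit forms the peptide bond and holds the tunnel through which the new protein leaves. One copy of nearly every ribosomal protein is needed for each ribosome. The messenger RNAs of these genes start with a run of pyrimidines, the TOP motif, through which mTORC1 signalling controls their translation together, and making ribosomes is among the costliest tasks of a growing cell.

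Differences between libraries touch every value that follows. Replicates 2 and 3 on 1% succinate stood apart from the other 10 libraries: across genes outside the rule, the rank correlation between gene length and deviation from the gene's own mean was 0.57 and 0.42 in them, so that short genes were low and long genes high, against a range of -0.63 to 0.28 in the rest. Replicate 2 on 0.5% succinate was the other extreme, at -0.63. The ribosomal protein genes are short, with a median length of 636 bases against 3135 bases for all tested genes, and 64 of the 73 are under 1000 bases, as are 8.08% of the tested genes outside the rule. The family's medians and counts are therefore given also against genes of similar length and without the libraries concerned, and differences of single genes at 1% also without both 1% replicates.

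Markers did not match an epithelial tissue. Of 10 stratified epithelium markers looked for, 8 are in the table, and of these KRT5, KRT4, TP63, IVL and DSG3 had 0 reads in all 12 libraries, and the summed FPKM of the list was 7.29 to 13.6 on the basal diet and at most 59.1, on 1% succinate. The 10 smooth muscle markers summed to 31160.4 to 35723 FPKM on the basal diet, 42612 to 56501 at 0.5%, 31621 to 43663 at 1% and 31193 to 39227 at 2%. The macrophage list summed to 138 to 225 FPKM on the basal diet and to 57.9 to 138, 110.5 to 124 and 104 to 118 at the 3 doses in rising order. The part of these cell types in the results below was not tested, and in bulk RNA fewer cells of a type and less RNA per cell cannot be told apart. Among the other marker lists the median log2 differences at 0.5%, 1% and 2% were -0.09, 0.30 and 0.04 for fibroblasts, -0.24, -0.22 and -0.07 for endothelium, -0.23, -0.33 and -0.35 for lymphocytes, -1.32, -1.36 and -0.18 for adipocytes and -0.20, -0.24 and -0.39 for enteric glia and neurons. For red blood cells a single gene, HBB, passed the filter, at -0.64, 0.42 and -0.22. Left with 1% replicate 1 alone, HBB was at 1.62 at 1%. The medians at 1% were then -0.01 for fibroblasts, -0.39 for endothelium, -0.33 for lymphocytes, -0.93 for adipocytes and -0.24 for enteric glia and neurons. In that order 8, 8, 3, 6 and 5 genes of the lists were tested. On the basal diet the lymphocyte list summed to 5.23 to 11.2 FPKM and the adipocyte list to 106 to 726 FPKM. At 2% the adipocyte list spanned 109 to 923 FPKM, so its medians carry a wide spread between libraries.

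The ribosomal protein genes were among the most abundant genes in every library. FPKM, the unit of the deposited values, scales reads by gene length and by library size, so levels of genes can be set side by side. This is less sure for genes with further rows for the same protein, described below. Of the 73 genes, 68 were in the top 1% of all genes by mean FPKM over the 12 libraries, and their median mean level was 1351 FPKM against 8.27 FPKM for all tested genes. The small subunit genes had a median of 1403 FPKM and the large subunit genes 1179 FPKM.

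Levels differed widely between genes, although nearly all of the proteins are built into the ribosome in equal number. Among the highest means were those of RPL23A, whose protein sits at the mouth of the exit tunnel, at 4347 ± 1361 FPKM (SD, n = 12), RPLP1 of the stalk at 4343 ± 1493 FPKM and RPS2 at 3655 ± 981 FPKM, with RPL4, whose protein lines the exit tunnel, at 2649 ± 720.4 FPKM. Among the lowest were RPL39, a very short tunnel protein, at 68.0 ± 33.2 FPKM, RPS21 at 169 ± 66.0 FPKM, RPS27 at 185 ± 70.5 FPKM and RPL38 at 194 ± 77.8 FPKM. The order of the genes was nearly the same in every library, with a rank correlation of 0.94 to 0.99 over the 66 pairs of libraries. Neighbours in that order, such as RPL23A and RPLP1, lay well within their spread over libraries. The low genes RPL39, RPS21, RPS27 and RPL38 are 381, 402, 344 and 418 bases long. For RPS27, 29.4% of the summed FPKM lay in other rows for the same protein, so its own level is uncertain.

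**Figure D1:**
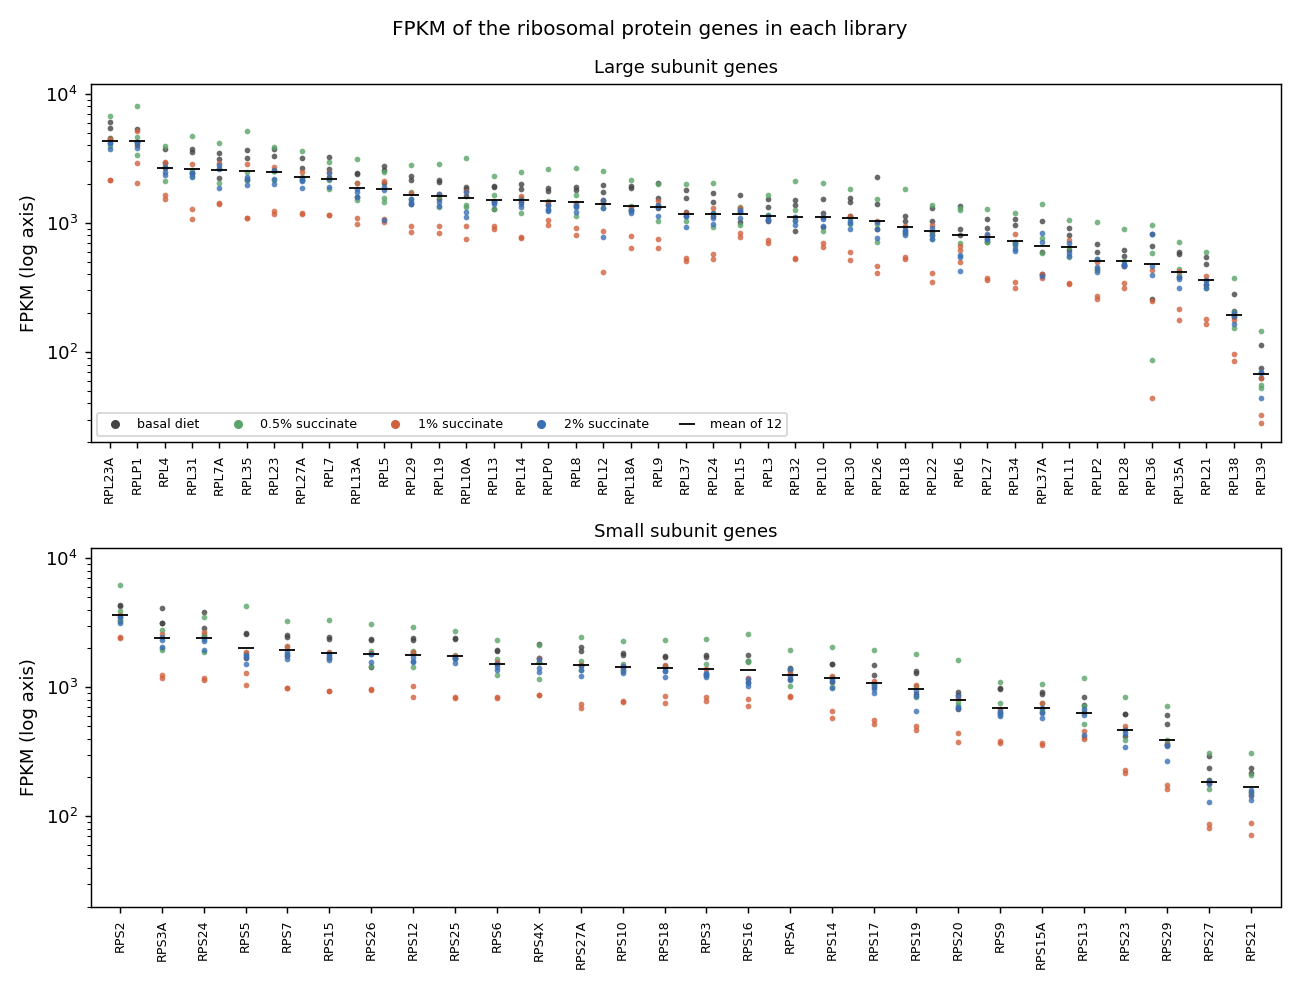
FPKM of 71 of the 73 genes in each of the 12 libraries on a log axis, the large subunit above and the small subunit below, ordered by mean level, with points coloured by diet and a bar at the mean of 12. The 2 lowest points of most genes are replicates 2 and 3 on 1% succinate, and RPL36 is the gene with the widest spread.

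Together the 73 genes took 9.69%, 9.10% and 6.88% of all gene reads in the 3 basal diet libraries. They took 6.27%, 11.9% and 7.39% at 0.5% succinate, 7.57%, 3.88% and 4.08% at 1% and 6.67%, 6.12% and 7.09% at 2%. Replicates 2 and 3 on 1% succinate held the lowest shares of the 12 and replicate 2 on 0.5% the highest, while replicate 1 on 1% lay among the controls. The means were 8.56 ± 1.48% on the basal diet, 8.52 ± 2.99% at 0.5%, 5.18 ± 2.07% at 1% and 6.63 ± 0.485% at 2% (SD, n = 3). At 2% the shares spanned 6.12% to 7.09%, which overlaps the control through replicate 3 of the basal diet at 6.88%.

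The subunits moved together from library to library. The reads of large subunit genes were 1.49 to 1.60 times those of small subunit genes in the 12 libraries. To follow the genes over libraries, each gene's log2(FPKM + 1) was set against its own mean over the 12. The median deviation of the 73 genes was 0.51, 0.43 and -0.03 in the basal diet libraries, -0.11, 0.83 and 0.10 at 0.5%, 0.13, -0.89 and -0.82 at 1% and -0.02, -0.15 and 0.04 at 2%. Basal diet replicate 3 stood lower than the other controls for all 73 genes, which 23.4% of tested genes did. The median of the large subunit genes minus that of the small subunit genes stayed between -0.06 and 0.09 in all 12 libraries, so the difference between subunits was small beside the difference between libraries.

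Single libraries set the extremes for nearly the whole family. Replicates 2 and 3 on 1% succinate were the 2 lowest of the 12 for 68 of the 73 genes, as they were for 14.7% of all tested genes. Replicate 2 on 0.5% succinate was the highest of the 12 for 64 of the 73, against 10.7% of tested genes. Replicate 1 on 1% succinate was above the lowest control for 63 of the 73, against 71.6% of tested genes.

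**Figure D2:**
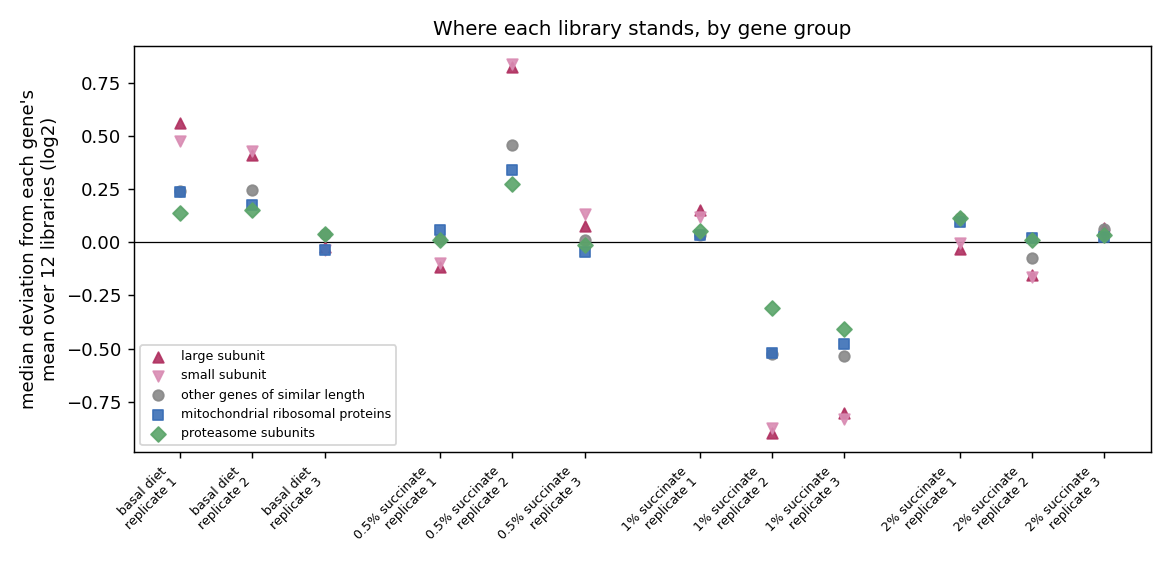
Median deviation (log2) of large and small subunit genes, of other tested genes within 20% of each member's length, of mitochondrial ribosomal protein genes and of proteasome genes in each of the 12 libraries, where 0 is each gene's own mean. Both subunits lie together in every library and reach further from 0 than the other groups in the basal diet replicates 1 and 2, in 0.5% replicate 2 and in 1% replicates 2 and 3.

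The question the design puts is whether dietary succinate changed these genes. Each dose was compared with the basal diet in 1 limma fit over the 12 libraries and 12095 tested genes, with Benjamini-Hochberg adjustment over all of them and a threshold of 0.05 on adjusted p. The 3 comparisons share the same control libraries, so their values stand side by side and are not independent. None of the 73 genes passed at any dose. No other gene did either, so the background was 0% of tested genes at 0.5%, 1% and 2% and for any difference among the 4 diets. The smallest adjusted p among the 73 was 0.883 at 0.5%, 0.197 at 1%, 0.999 at 2% and 0.396 for any difference. A fit with limma-voom on the recovered reads called 0 of the 73 as well, and 0% of tested genes.

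At 0.5% succinate the family lay near the control. The median log2 difference was -0.01 over the 73 genes, -0.04 over the large and 0.01 over the small subunit, with 39 genes lower and 34 higher, while the median of all tested genes was -0.11. With libraries scaled by median ratios the median of all tested genes moved to -0.01 and that of the 73 to 0.11, so no direction can be given at this dose. No member had an unadjusted p under 0.05 with a lower level, which 3.7% of tested genes had. The value rested on single libraries: the median of the 73 was -0.30 without 0.5% replicate 2 and -0.19 without basal diet replicate 3, but 0.17 without 0.5% replicate 1, 0.09 without basal diet replicate 1, 0.03 without basal diet replicate 2 and 0.08 without 0.5% replicate 3.

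At 1% succinate all 73 genes were lower than in the control, by amounts that 2 of the 3 libraries carried. The median log2 difference was -0.82, at -0.83 in the large and -0.81 in the small subunit, against -0.04 for all tested genes. By unadjusted p under 0.05, 59 of the 73 were lower, against 12.1% of tested genes. That count was 19 without basal diet replicate 1, against 10.1% of tested genes, and 29 without basal diet replicate 2, against 7.47%. It was 12 without 1% replicate 2, against 6.62%, and 17 without 1% replicate 3, against 5.95%. With the length trend removed it was 15, against 5.89%, and with quantile normalization 21, against 8.8%. Without both 1% replicates 2 and 3, which leaves 1 library at that dose, assumed to vary like the others, the median was -0.17, with 69 of 73 lower and 0 under an unadjusted p of 0.05. Without 1% replicate 1, which leaves only the libraries that stand apart, 60 of the 73 were called lower by limma, with a median of -1.17, and so were 1525 of 12095 genes, while 1109 were called higher.

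At 2% succinate 72 of the 73 genes were lower than in the control, by less. The median log2 difference was -0.35 in the family, -0.35 in the large and -0.37 in the small subunit, with 0.00 for all tested genes. RPL36 was the gene that was not lower, at 0.03. By unadjusted p under 0.05, RPL6 alone was lower, 1 of 73 against 1.6% of tested genes. Leaving out any 1 library gave 1 to 4 such members, against 0.868% to 2.69% of tested genes. A limma fit of only the 6 libraries compared gave 16, against 4.04%. With library weights, whose estimation stopped before it converged, the count was 13, against 7.53%. The median was -0.50 without basal diet replicate 3 and -0.25 without basal diet replicate 1, the widest range that leaving out any 1 library gave. It was -0.22 with the length trend removed and -0.11 with quantile normalization. For any difference among diets, 20 of the 73 had an unadjusted p under 0.05, against 12.6% of tested genes. That count was 67 without 1% replicate 1, against 31.5% of tested genes, and 43 without 0.5% replicate 1, against 12.9%. It was 6 and 8 without basal diet replicates 1 and 2, against 11.3% and 8.13%, and 12 or 13 without any 1 library at 2%, against 8.68% to 10.1%. It was 3 without 1% replicate 2 and 3 without 1% replicate 3, against 6.06% and 6.74%, and 2 without both, against 5.63%. The counts of 2, 3, 6 and 8 are near the share of all tested genes or under it. With the length trend removed it was 4, against 6.71%.

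Other short genes were also lower at 1% and, by less, at 2%. For each member, the median log2 difference of the tested genes outside the rule within 20% of its length was subtracted. Between 15 genes, for RPS29, and 2241 genes met that window. At 0.5% the median of the remainder was 0.03 and 31 of 73 were below their length window. At 1% it was -0.34 with 71 below, and at 2% it was -0.23 with 66 below. Without 1% replicates 2 and 3 the remainder at 1% was -0.01 with 40 of 73 below, and without 1% replicate 2 alone it was -0.21. With quantile normalization the direction turned at 1%, to 0.13 with 23 of 73 below, and at 2% the remainder was 0.00 with 37 below. That method gives every library the same distribution of values. As 68 of the 73 genes are in the top 1% of all genes, it can also remove a joint shift of the family. In the class of 500 to 750 bases, which holds 35 members, the median at 1% was -0.81 for members and -0.52 for the 339 other genes, and at 2% it was -0.38 and -0.13. Across the 73 genes the rank correlation of length with the difference at 1% was 0.55, and across the tested genes outside the rule it was also 0.55.

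**Figure D3:**
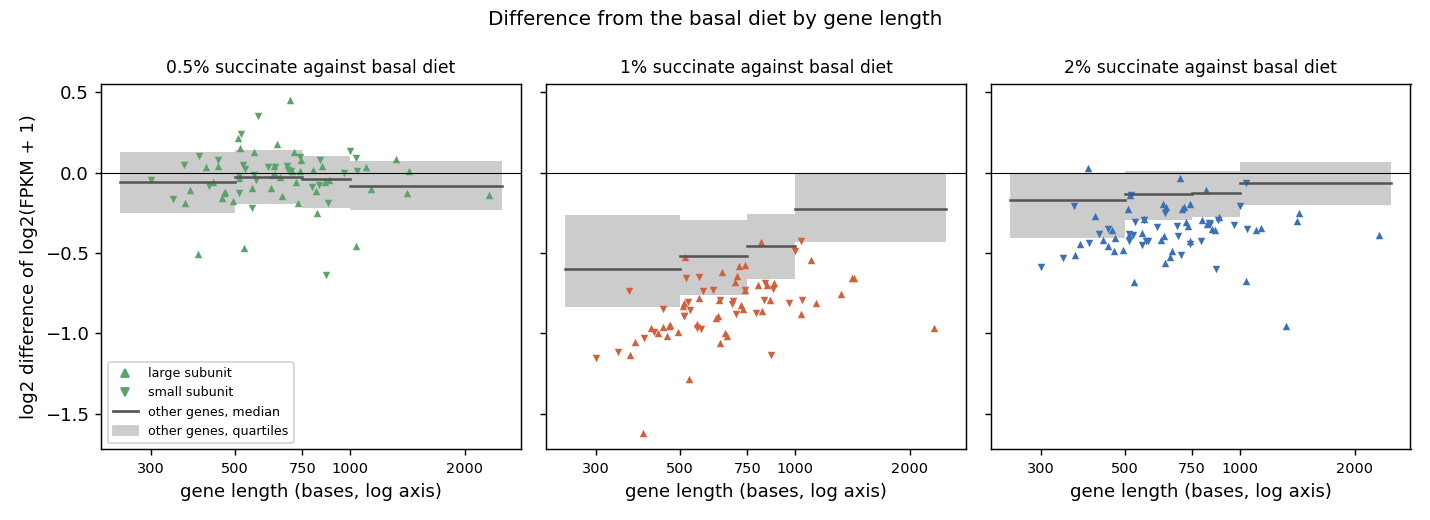
Difference from the basal diet (log2 of FPKM + 1) against gene length on a log axis at each dose, for the 73 genes as triangles and for other tested genes as the median (line) and quartiles (grey) of 4 length classes up to 2500 bases. At 1% and 2% most triangles lie under the line of other genes of their length (with quantile normalization 23 and 37 of the 73 were below their length window), and the line itself falls toward short genes at 1%.

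Whether groups overlapped was read for each gene. At 0.5% succinate all 3 libraries lay below all 3 controls for 1 of the 73 genes, RPS3A, against 10.4% of tested genes, and above them for 0, against 1.76%. At 1% this held below for 10 genes, against 10.7%, and above for 0, against 7.14%. At 2% it held below for 19 genes, 10 of the large and 9 of the small subunit, against 6.75%, and above for 0, against 7.43%. The counts at 1% and 2% depended on basal diet replicate 3. Without it 68 of the 73 genes had all 3 libraries at 2% below both controls, against 12.5% of tested genes, and 70 did at 1%, against 16.5%. Without 1% replicate 1 the count at 1% was 73, against 29.2%, without 0.5% replicate 2 that at 0.5% was 12, against 16.3%, and without 2% replicate 3 that at 2% was 36, against 10.3%. At 0.5% it was 2 without basal diet replicate 3, against 14%. The count at 2% was 8 with median-ratio scaling, against 6.8% of tested genes, 13 with quantile normalization, against 6.25%, and 18 with the length trend removed, against 6.9%. At 1% it was 3 with median-ratio scaling, against 7.57%.

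The stalk proteins RPLP0, RPLP1 and RPLP2 form the flexible arm of the large subunit that brings elongation factors to the ribosome. RPLP0, the base of the stalk, was at 1779.8, 1862 and 1383 FPKM on the basal diet, 1272, 2619.6 and 1484 at 0.5%, 1446, 969.5 and 1054 at 1% and 1280.3, 1247 and 1373 at 2%. The 3 libraries at 2% lay below all controls, and the other doses overlapped them. The log2 difference of RPLP0 was 0.04 ± 0.28 (SE) at 0.5%, -0.54 at 1% and -0.35 at 2%, with the same SE. RPLP1 was at 4229.8, 5358 and 4049 FPKM on the basal diet, 3335, 8074 and 4674 at 0.5%, 5162, 2036 and 2919 at 1% and 4258, 4221 and 3803 at 2%. It overlapped the control at every dose, and at 1% it was 0.09 above its length window where most members were below. RPLP2 was at 599, 682 and 441 FPKM on the basal diet, 436, 1025 and 528 at 0.5%, 496, 259 and 274 at 1% and 522, 455 and 415 at 2%. All its doses overlapped the control too, with log2 differences of 0.13 ± 0.33 (SE) at 0.5%, -0.78 at 1% and -0.29 at 2%, with the same SE. Without 1% replicates 2 and 3 the difference at 1% was -0.20 for RPLP0, 0.19 for RPLP1 and -0.19 for RPLP2.

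RPL5 and RPL11 bind the 5S ribosomal RNA, and as a free particle they bind MDM2, the ubiquitin ligase of p53. RPL5 was at 2749.6, 2572 and 2045 FPKM on the basal diet, 1567, 2460.3 and 1459 at 0.5%, 2113, 1023 and 1076 at 1% and 1811, 1048 and 1884 at 2%. The libraries at 2% were all below the control, and those at 0.5% and 1% overlapped it. Its log2 difference was -0.45 ± 0.34 (SE) at 0.5%, -0.88 at 1% and -0.67 at 2%, with the same SE. RPL11 was at 917, 814 and 617 FPKM on the basal diet, 542, 1064 and 648 at 0.5%, 735, 341 and 339 at 1% and 587, 550.1 and 697 at 2%. It overlapped the control at every dose, with -0.10 ± 0.33 (SE) at 0.5%, -0.81 at 1% and -0.34 at 2%, with the same SE. Among other proteins that were described to bind MDM2, RPL23 had log2 differences of -0.17 ± 0.34 (SE) at 0.5%, -0.99 at 1% and -0.48 at 2%, with the same SE. The values at 1% without replicates 2 and 3 at that dose were -0.21 for RPL5, -0.07 for RPL11 and -0.21 for RPL23.

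At the catalytic core and the tunnel, RPL3 lies next to the peptidyl transferase centre and RPL10 joins the subunit late, in the cytoplasm. RPL3 was at 1540.5, 1319 and 1044 FPKM on the basal diet, 1145, 1653 and 1151 at 0.5%, 1066, 732 and 694 at 1% and 1048, 1059.6 and 1138 at 2%. It overlapped the control at each dose, as 1% replicates 2 and 3 were low and replicate 1 was not. RPL10 was at 1185, 1525 and 926 FPKM on the basal diet, 870.3, 2049 and 1109 at 0.5%, 1118, 697 and 652 at 1% and 1067, 944 and 1106 at 2%, which overlapped as well. RPL23A, the most abundant member, was at 5456, 6081 and 4574 FPKM on the basal diet, 3926, 6776 and 4439 at 0.5%, 4504, 2168 and 2151 at 1% and 4145, 3772 and 4171 at 2%. Its libraries at 1% and at 2% all lay below the control, with log2 differences of -0.95 ± 0.32 and -0.41 ± 0.32. RPL39, the low tunnel protein, was at 114, 75.8 and 63.3 FPKM on the basal diet, 53.2, 146 and 55.7 at 0.5%, 62.8, 32.5 and 28.4 at 1% and 70.5, 44.0 and 69.2 at 2%. At 1% its libraries lay below the control and at 2% they overlapped it. With 1% replicate 1 as the sole library at that dose, RPL23A differed by -0.24 and RPL39 by -0.38.

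Further named members of the large subunit differed in whether 1% replicate 1 lay under the lowest control. RPL38, which mouse embryos need for the translation of Hox messenger RNAs, was at 283, 209.5 and 186 FPKM on the basal diet, 204, 378 and 153 at 0.5%, 177, 85.2 and 96.0 at 1% and 201, 165 and 189 at 2%. Its libraries at 1% were below the control, with -0.97 ± 0.33, and those at 2% overlapped it. RPL22, which binds cellular RNAs and has a paralogue, RPL22L1, was at 1317, 1034 and 845 FPKM on the basal diet, 748, 1371 and 811 at 0.5%, 964, 407 and 352 at 1% and 805, 748 and 914 at 2%. It overlapped the control at every dose, with -1.02 ± 0.36 at 1%. RPL37, a small zinc-binding protein, was at 1802, 1564 and 1218 FPKM on the basal diet, 1031, 1998 and 1124 at 0.5%, 1187, 509 and 534 at 1% and 1125, 926 and 1127 at 2%. It was below the control in all libraries at 1% and at 2%, with -1.14 ± 0.34 and -0.52 ± 0.34. Without 1% replicates 2 and 3 the differences at 1% were -0.33 for RPL38, -0.12 for RPL22 and -0.35 for RPL37.

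In the small subunit, RPS2 and RPS3 line the entry of the messenger RNA, and RPS3 also has a described role in DNA repair. RPS2 was at 4328, 4232 and 3262 FPKM on the basal diet, 3302, 6140.1 and 3920.3 at 0.5%, 3646, 2409 and 2468 at 1% and 3493, 3139.6 and 3519 at 2%. It was among the 3 members with the smallest difference at 1%, -0.49 ± 0.28. RPS3 was at 1764, 1718 and 1248 FPKM on the basal diet, 1247, 2376 and 1506 at 0.5%, 1389.8, 838 and 779 at 1% and 1292, 1203 and 1258 at 2%. Neither gene was clear of the control at any dose. RPSA, known also as the laminin receptor precursor, was at 1365, 1411 and 1155 FPKM on the basal diet, 1017, 1947 and 1360.4 at 0.5%, 1282, 853 and 841 at 1% and 1232, 1139 and 1392 at 2%. With -0.42 ± 0.26 it had the smallest difference of all members at 1%, and with -0.06 ± 0.26 it lay near the control at 2%. With 1% replicates 2 and 3 left out, the values at 1% were -0.10 for RPS2, -0.17 for RPS3 and -0.03 for RPSA.

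RPS6 is the ribosomal protein that S6 kinase phosphorylates downstream of mTORC1. RPS6 was at 1956, 1895 and 1523 FPKM on the basal diet, 1246, 2319.7 and 1657 at 0.5%, 1573, 841 and 825 at 1% and 1446, 1359.7 and 1502 at 2%. Its libraries at 2% lay below the control, and those at 1% overlapped it through replicate 1. Its log2 difference was -0.08 ± 0.29 (SE) at 0.5%, -0.79 at 1% and -0.31 at 2%, with the same SE. RPS27A, which is made as a fusion with ubiquitin, was at 2049.5, 1925 and 1481 FPKM on the basal diet, 1593, 2454 and 1359 at 0.5%, 1483, 746 and 696 at 1% and 1349, 1228 and 1453 at 2%. It was below the control in all libraries at 2%, with -0.43 ± 0.31. RPS4X, whose gene lies on the X chromosome in humans and has a Y-linked partner there, had log2 differences of -0.19 ± 0.30 (SE) at 0.5%, -0.72 at 1% and -0.30 at 2%, with the same SE. At 1% without replicates 2 and 3, RPS6 was at -0.18, RPS27A at -0.28 and RPS4X at -0.09.

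RPS14, RPS19 and RPS26 are known from human anaemias in which 1 copy of the gene is lost. RPS19 was at 1296, 1339.7 and 881 FPKM on the basal diet, 839, 1815 and 1028 at 0.5%, 1047, 464 and 505 at 1% and 931, 657 and 861 at 2%. RPS14 was at 1521, 1504 and 1098 FPKM on the basal diet, 1011, 2062 and 1198 at 0.5%, 1229.5, 583 and 652 at 1% and 1115, 988 and 1149.5 at 2%. RPS26 was at 2356, 2327 and 1445 FPKM on the basal diet, 1471, 3109.7 and 1902 at 0.5%, 1849, 955 and 969 at 1% and 1817, 1578 and 1794 at 2%. All 3 genes overlapped the control at every dose, and in each of them the lowest libraries were 1% replicates 2 and 3. Their log2 differences at 1% were -0.88 ± 0.35 for RPS19, -0.81 ± 0.32 for RPS14 and -0.74 ± 0.33 for RPS26. At 1% without replicates 2 and 3 they were -0.14, -0.14 and -0.11. At 2% they were -0.51 ± 0.35, -0.33 ± 0.32 and -0.21 ± 0.33.

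The extremes of the range at 1% and at 0.5% held both very short and longer members. RPS29, the shortest member at 300 bases and a zinc-binding protein, was at 613, 519 and 359.7 FPKM on the basal diet, 389.8, 719.9 and 370.3 at 0.5%, 366, 162 and 174 at 1% and 356, 268 and 354 at 2%. Its log2 difference at 1% was -1.15 ± 0.34, and at 2%, where all its libraries lay below the control, -0.59 ± 0.34. RPL15 was at 1642, 1239 and 1027 FPKM on the basal diet, 961, 1297 and 1328 at 0.5%, 1298, 837 and 786 at 1% and 1092, 1212 and 1255 at 2%. Its difference at 1% was -0.43 ± 0.26, and it lay 0.03 from its length window. RPS16 and RPS20 were among the 3 highest members at 0.5%, with 0.35 ± 0.28 and 0.24 ± 0.34, and both overlapped the control there. Of the members with the lowest levels, at 1% RPS21 had -1.03 ± 0.30 and RPS27 had -1.11 ± 0.33. Of those with the highest levels, RPL4 had -0.65 ± 0.30 and RPL23A the value given above. Left with 1% replicate 1 alone, the differences at 1% were -0.41 for RPS29, 0.02 for RPL15, -0.46 for RPS21, -0.39 for RPS27 and -0.05 for RPL4.

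Members followed each other closely. Over the 12 libraries the median Pearson correlation of 2 members' deviations was 0.94 over 2628 pairs, with a range of 0.38 to 1.00, as a description of genes that share the same libraries. For 53 of the 73 the correlation with the family's median was over 0.95. After that median was taken away, the SD over libraries of the remainder was 0.13 for the median member, against an SD of 0.49 for the family's median itself. The remainder reached an SD of 0.2 or more in 14 members, led by RPL36 at 1.02, RPL37A at 0.47 and RPL6 at 0.43.

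Several of these exceptions have further rows in the table for the same protein, called copies here. The table holds 217 rows without a gene name whose description is the protein of a member, for 56 of the 73 members. Of them 186 are as long as their span on the chromosome, with no intron annotated, which is true of 0 members. They took 5.28% to 7.11% of the reads of members and copies. How reads that fit both a gene and its copy were counted is not given in the sources used here, so the levels of such genes are uncertain one by one.

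RPL36 was at 827, 664 and 256 FPKM on the basal diet, 87.3, 962 and 584 at 0.5%, 435, 43.9 and 249 at 1% and 816, 393 and 463 at 2%. Its copy LOC101103232, of 389 bases against 400 for RPL36, was at 499, 472 and 706 FPKM on the basal diet, 681, 621 and 363 at 0.5%, 508, 398 and 268 at 1% and 13.5, 259.7 and 283 at 2%. Where RPL36 was lowest, at 87.3 FPKM in 0.5% replicate 1 and 43.9 in 1% replicate 2, the copy was at 681 and 398 FPKM, and where the copy was lowest, at 13.5 FPKM in 2% replicate 1, RPL36 was at 816 FPKM. With copies added, the SD of the remainder was 0.13 in place of 1.02, and the log2 difference at 2% was -0.61 in place of 0.03. With copies added to every member, all 73 were lower at 2%.

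RPL37A was at 593, 1042 and 402 FPKM on the basal diet, 767, 1413 and 585 at 0.5%, 403, 378 and 395 at 1% and 389.6, 712 and 833 at 2%. Its 4 copies summed to between 10.4 FPKM in 1% replicate 3 and 917.5 FPKM in 1% replicate 1, and with them the log2 difference at 0.5% was -0.15 in place of 0.45, the highest of all members. RPL5 was low in 0.5% replicate 3 and 2% replicate 2, where its copies summed to 510.9 and 367 FPKM against 8.48 to 20.3 FPKM in the other 10 libraries. Its difference at 2% was -0.53 with copies and -0.67 without. RPL26, which binds the messenger RNA of p53 in human cells, had 52.3% of the summed FPKM in its copy LOC101104237. Its difference at 1% was -1.02 with the copy and -1.28 without. Left with 1% replicate 1 alone, RPL26 without the copy was at -0.46.

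RPS3A, taken without its copies, was the member whose libraries all lay below the control at every dose. RPS3A was at 4140.1, 3132 and 3132 FPKM on the basal diet, 2007, 2754 and 1953 at 0.5%, 2584, 1179 and 1254 at 1% and 2307, 2056 and 2465 at 2%. Its log2 difference was -0.64 ± 0.30 (SE) at 0.5%, -1.14 at 1% and -0.60 at 2%, with the same SE. With 1% replicates 2 and 3 left out, the difference at 1% was -0.41. Its copies, nearly all LOC114113024, summed to 463, 999.9 and 244.5 FPKM on the basal diet and 699, 2049 and 1379 FPKM at 0.5%, with the highest sums of the 6 libraries in 0.5% replicates 2 and 3. Member and copies together were at 4603, 4132 and 3376.5 FPKM on the basal diet and 2706, 4803 and 3333 FPKM at 0.5%, which overlapped. At 1% they were at 3567, 1621 and 1680 FPKM, which overlapped the control as well. At 2% they were at 3161, 2815 and 3276 FPKM, below all controls. The difference at 0.5% was -0.19 with copies and -0.64 without. It was -0.91 and -1.14 at 1%, and -0.38 and -0.60 at 2%.

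**Figure D4:**
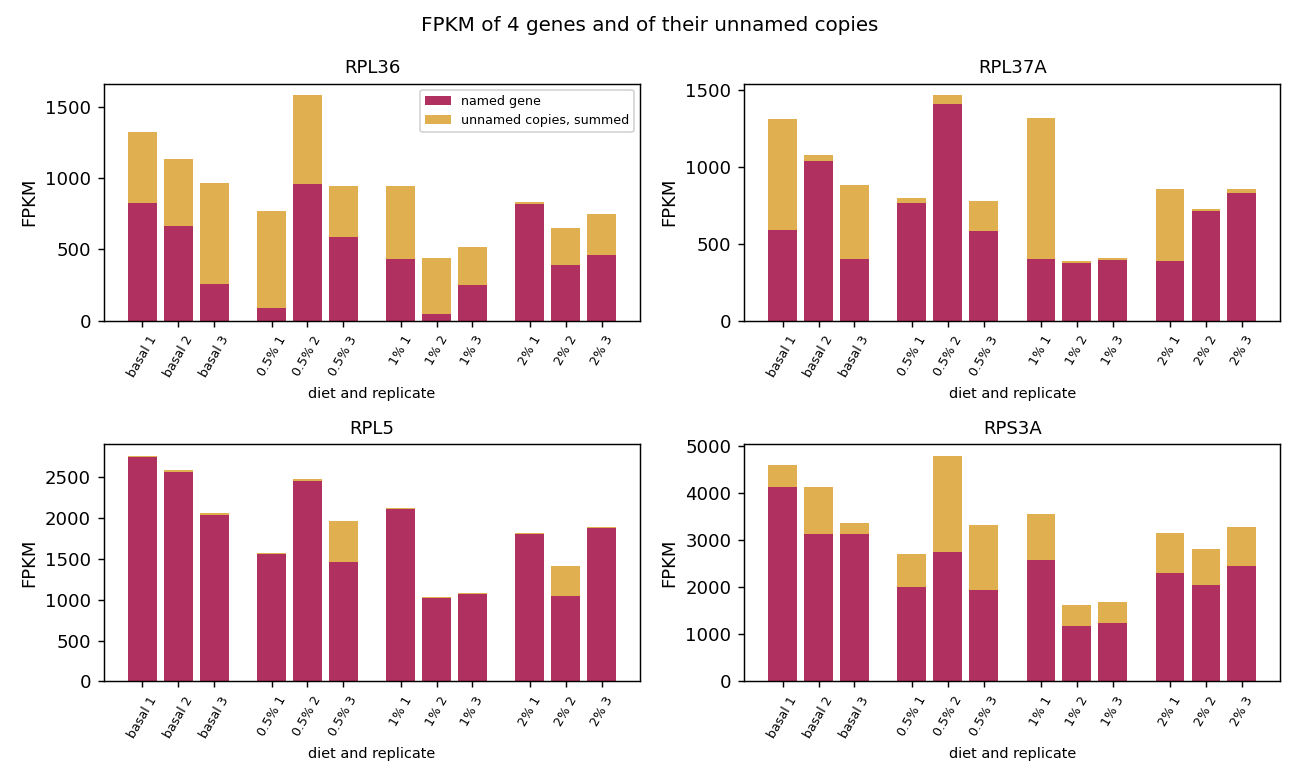
FPKM of RPL36, RPL37A, RPL5 and RPS3A (red) and of their unnamed copies summed (yellow), stacked from 0, in each of the 12 libraries. The split between gene and copies changes from library to library, as in 2% replicate 1, where the copies of RPL36 are at 13.6 FPKM, while the full height follows the order of the libraries.

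RPL6 was below the control at 1% and 2% with and without its copies. RPL6 was at 1355, 894 and 800.2 FPKM on the basal diet, 699.8, 1312 and 1262 at 0.5%, 615, 494 and 659.8 at 1% and 545, 427 and 569.5 at 2%. Its libraries at 1% and at 2% all lay below the control. The log2 difference at 2% was -0.95 ± 0.28, the lowest of all members at that dose, with an unadjusted p of 0.00508 and an adjusted p of 0.999 by limma. With its 9 copies it was -0.57, with an unadjusted p of 0.07, and RPL36 with its copy was then lower, at -0.61. The libraries at 1% and 2% were still below the control, at 579 to 930.0 and 666 to 880.0 FPKM against 941.9 FPKM in the lowest control. Of the 14 members with a remainder of 0.2 or more, 6 fell under that value with copies added. RPS16 and RPS21 stood over it with no copy in the table, and RPL15, RPL39 and RPLP1 with copies that held under 1% of the summed FPKM.

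Genes outside the rule that followed the family most closely over the 12 libraries were other ribosomal protein rows and a few short genes. By Pearson correlation with the family's median the first 5 were LOC121816084, described as 60S ribosomal protein L14-like, at 0.995, LOC121818306, described as L17, at 0.992, PFDN5, a prefoldin subunit, at 0.989, LOC101110546, described as L30, at 0.988, and POLE4, a subunit of DNA polymerase epsilon, at 0.988. Each is between 479 and 708 bases long. FAU, whose gene codes for the ubiquitin-like fusion of RPS30, was at 870.0, 875 and 632 FPKM on the basal diet, 625, 1256 and 636 at 0.5%, 677, 339.8 and 347 at 1% and 537, 556 and 542 at 2%, and its difference at 1% was -0.86 ± 0.32. The ribosomal protein paralogues and fusions outside the rule had medians of -0.03, -0.74 and -0.29 at the 3 doses over 8 tested genes, all 8 lower at 1%, and 0 were called. With 1% replicates 2 and 3 left out, FAU was at -0.21 at 1%. The list then had a median of -0.17 at 1%, with 6 of 8 lower.

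Lists of other genes of protein synthesis, and of the proteasome, which breaks proteins down, had medians below 0 at 1%; the difference between them and the family was not tested. The 75 tested mitochondrial ribosomal protein genes, which build a separate ribosome, had median differences of 0.00, -0.45 and -0.08 at 0.5%, 1% and 2%, with 72 of 75 lower at 1%. The 37 tested proteasome genes had -0.04, -0.36 and -0.08, with 33 of 37 lower at 1%. Translation factors and other genes with TOP messenger RNAs had -0.12, -0.47 and -0.10 over 20 genes. None of these genes was called at any dose, and their median lengths of 992, 1301 and 1910 bases exceed that of the ribosomal protein genes, so the lists are not matched to the family. Without 1% replicates 2 and 3 the medians at 1% were -0.11, -0.05 and -0.05.

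EIF3E, a subunit of initiation factor eIF3, which is on the TOP list, had -0.99 ± 0.33 at 1%. Genes of RNA polymerase I and nucleolar processing, which make and trim ribosomal RNA, had medians of -0.14, -0.23 and -0.09 over 36 genes, with FBL, the methylase of ribosomal RNA, at -0.68 ± 0.20 and GAR1, of the pseudouridine-forming particles, at -0.87 ± 0.22 at 1%. Ribosomal protein chaperones and p53 sensing genes had -0.11, -0.09 and 0.00 over 12 genes. In this list at 1% RPS19BP1, of 762 bases, was at -0.78 ± 0.19 and HUWE1, a ubiquitin ligase gene of 18915 bases, at 1.11 ± 0.34. With 1% replicate 1 alone at that dose, the medians were -0.04 for the nucleolar list and 0.00 for the chaperone list. The single genes were then at -0.21 for EIF3E, -0.44 for FBL, -0.50 for GAR1, -0.47 for RPS19BP1 and 0.16 for HUWE1.

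The genes of mTORC1 and of TOP control had a median above 0 at 1%, where that of the family was below 0; the difference between the lists was not tested. Their medians were -0.05, 0.16 and 0.05 over 20 genes, and at 1% 13 of 20 were higher and 7 lower. Without 1% replicates 2 and 3 the median at 1% was 0.01. MTOR, the kinase itself, was at 6.29, 7.24 and 8.43 FPKM on the basal diet, 8.56, 6.50 and 6.43 at 0.5%, 7.96, 13.8 and 19.7 at 1% and 7.63, 10.9 and 8.09 at 2%. The 2 highest libraries were 1% replicates 2 and 3, in which the ribosomal protein genes were lowest, and MTOR is 8743 bases long. RHEB, the activator of mTORC1 and 555 bases long, was at 196, 181 and 158 FPKM on the basal diet, 157, 161 and 134 at 0.5%, 175, 111 and 90.5 at 1% and 172, 143 and 182 at 2%, with its lowest libraries in the same 2 replicates and a log2 difference at 1% of -0.55 ± 0.22. With 1% replicates 2 and 3 left out, RHEB differed by -0.02 at 1%. None of the 20 was called at any dose by limma.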

How the data were processed

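RNA was sequenced in 12 libraries of Tan sheep, 3 for each of 4 diets, grouped by the labels. The deposited table gives FPKM (reads scaled by gene length and library size) for 21257 genes with gene lengths, made by the authors. The submitters' processing notes name cutadapt 1.15, HISAT2 2.1.0 and HTSeq 0.9.1; the genome build, the strand setting and the handling of reads that fit several genes are not given in the sources used here, so no coordinates are printed. Multiplied by length, the FPKM values came out as whole reads within 0.01 for 100.0% of values, which gave 15489883 to 18717309 reads in genes per library. No 2 libraries agreed within sampling noise (lowest chi-square per gene 24.2).

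Values were taken as log2(FPKM + 1), which understates fold changes of low genes. The 12095 genes that reached 1 FPKM in 3 or more libraries entered a limma 3.58.1 trend fit with robust variance in R 4.3.3, all 12 libraries together, with no covariate, and p-values were adjusted by Benjamini-Hochberg over all of them. Genes of similar length were the tested genes outside the rule within 20% of a member's length. Correlations are descriptions and carry no p. With 3 libraries a diet the precision is limited by their number.

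The members and gene lists were chosen with earlier results of these data known. Genes named in the text are a fixed set by role, the 5 highest and lowest mean levels, the 3 highest and lowest differences at each dose, the 3 members that follow the family least, up to 4 genes a list by smallest p, and the 5 genes most alike to the family; the unnamed copies were looked at after their values were seen. The marker lists cover smooth muscle, fibroblasts, stratified epithelium, endothelium, lymphocytes, macrophages, adipocytes, enteric glia and neurons, and red blood cells. Some genes that this rule names are not reported here. Python 3.11.15 with pandas 2.3.3 was used for the rest.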

Additional observations from a re-analysis of the deposited data

How the results depend on the processing

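Under 24 alternative fits the number of the 73 genes called was 0 at 0.5%, where 0% of all tested genes were called too. At 2% it was also 0, against at most 0.529% of tested genes, reached with library weights. The number of the 73 called was 0 in all but 1 at 1%, and in all but 1 of the 23 that test any difference among diets. The exception was the fit without 1% replicate 1, which called 21.8% of all tested genes at 1% and 11.1% for any difference, so that leaving out 1 library gave 0 to 60 called at 1% and 0 to 34 for any difference. The replicate block (limma with the replicate number as a term) called 0 members and 0% of tested genes at each dose, and changed no call. Same-numbered libraries had correlations of -0.33 to 0.26, with 5 of 18 pairs over 0.1. The labels do not say whether the numbers pair samples, and with 3 libraries a diet these correlations cannot decide it. Under the block 55 members were lower by unadjusted p under 0.05 at 1%, against 11.6% of tested genes.

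The median log2 difference at 1%, -0.82, was -0.25 with quantile normalization, -0.33 with the length trend removed and -0.17 without both 1% replicates 2 and 3. The median at 2%, -0.35, was -0.11 with quantile normalization. The median difference from genes of similar length at 1%, -0.34, was -0.013 without both 1% replicates and, under a scaling added after seeing the data, 0.13 with quantile normalization, where its direction turned. At 2%, -0.23, it was -0.00054 with quantile normalization. The causes were not tested.

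Counts of members with all libraries below the control were added after seeing the data. At 0.5% the count was 1, against 10.4% of tested genes. It was 0 with median-ratio scaling, against 4.22%, 6 with quantile normalization, against 3.89%, and 0 with copies summed, against 10.4%. With median-ratio scaling it was 3 at 1%, against 7.57%, in place of 10, against 10.7%. At 2% it was 8, against 6.8%, in place of 19, against 6.75%. Leaving out each library of the diets compared gave 1 to 12 at 0.5%, against 14% to 25% of tested genes. The same gave 10 to 73 at 1%, against 13.2% to 29.2%, and 19 to 68 at 2%, against 9.84% to 17.8%. The counts at 0.5%, other than the 6 with quantile normalization, and the 10 at 1% are near the share of tested genes or under it.

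As a share of summed FPKM in place of reads, the members held 23.1% on the basal diet, 22.3% at 0.5%, 16.5% at 1% and 19.3% at 2%. With mitochondrial genes and the 10 most abundant genes left out of the total, the share was 10.1% on the basal diet, 10.5% at 0.5%, 6.17% at 1% and 7.86% at 2%. Of the 36 named members, 27 were called lower at 1% without 1% replicate 1, as were 1525 of the 12095 tested genes. Some of the 36 were named by their differences in these same data. A fitted difference that was called neither way changed sign in 86 alternatives at 0.5%, 9 at 1% and 20 at 2%, summed over those members. In the fit with library weights, the estimation of the weights stopped before it converged. With 3 libraries a diet, an exact permutation test over 2 diets cannot pass the threshold, and none was used.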
